A study of Monodelphis domestica and Mus musculus with 2 samples.

Results

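The cells described here are the neurons labelled L6CT, for layer 6 corticothalamic, in the primary visual cortex (V1) of the gray short-tailed opossum, Monodelphis domestica. They were chosen by 3 deposited labels, namely that a cell lay in a V1 region and passed the authors' filter, that its subclass was L6CT, and that its class was glutamatergic. The rule found 565 cells among 4806 V1 cells, 80369 segmented opossum cells and 200608 cells in the series as a whole. Another 3 cells with the subclass label L6CT carried the non-neuronal class and were left out. The tissue came from 1 adult male opossum of about 6 months, and mouse tissue, used here only side by side, came from 1 wild-type C57BL/6J male of about 40 days. No treatment is named for either animal.

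Corticothalamic neurons of layer 6 are excitatory cells at the bottom of the cortex whose axons run to the thalamus, where they adjust the signals that reach the cortex, and whose collaterals reach other cortical layers. They are told apart from intratelencephalic (IT) neurons, which project within the cortex, from pyramidal tract neurons (L5PT), which project to the brainstem and spinal cord, and from near-projecting neurons (L5NP). In rodents they are known for the transcription factors FOXP2, TBR1 and SOX5, the co-repressor TLE4 and the vesicle protein SYT6.

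The spatial method, Stereo-seq, captures RNA from a section on barcoded spots, and unique molecular identifiers (UMIs) are counted per gene over each segmented cell. V1 was sampled in 3 regions of the opossum and 4 regions of the mouse, outlined by hand by the authors from layer 2/3 down through layer 6. The regions of a species come from 1 animal and are not replicates, so values are given per region or over all regions together, and no test was made. Levels are UMIs per 10000, and intervals at 95% are exact and cover counting error only. A level summed over cells cannot tell a change in every cell from a change in some of them.

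The opossum L6CT cells numbered 202, 181 and 182 in regions 1, 2 and 3. They made up 20.9% of the 2701 glutamatergic cells compared (Clopper-Pearson interval 19.4 to 22.5), with 18.9%, 19.5% and 25.9% in the 3 regions. The glutamatergic class as a whole held 3752 V1 cells, 331 of them with an oligodendrocyte subclass label. Cells of that class outside the subclasses compared are not in these shares. The paper did not measure cell densities with Stereo-seq because transcripts may drop out, possibly more so in the opossum. The L6CT cells held 995478 UMIs in all and a median of 1751 per cell (interquartile range 1068 to 2271), with regional medians of 1915, 1884 and 1379.5. The reference was 2136 cells of IT_A, IT_B, IT_C, L5PT and L5NP, with a median of 1408.5 UMIs. IT_A supplied 1594 of these cells and 2325540 of their 3252786 UMIs, so ratios to the reference are mostly ratios to IT_A. Region 3 had the shallowest cells and the highest share of L6CT. The subclass label was given in 3 rounds of decreasing stringency, and 250, 220 and 95 L6CT cells came from rounds 1, 2 and 3. A finer cluster label was present for 517 cells, and 455 of them (88.0%) shared a single cluster.

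The label was first set against its own markers. FOXP2 (ENSMODG00000015863), a forkhead transcription factor, had 5.05, 3.68 and 5.61 UMIs per 10000 in L6CT cells of regions 1, 2 and 3, and 0.35, 0.53 and 0.22 in the reference. SYT6 (ENSMODG00000000628), a synaptotagmin of the vesicle fusion machinery, had 2.15, 2.58 and 2.36 against 0.18, 0.07 and 0.12. TLE4 (ENSMODG00000009542), a Groucho co-repressor, had 3.27, 2.82 and 2.13 against 1.02, 0.95 and 0.72. The L6CT level of each marker lay above the reference in all 3 regions, and the values did not overlap. Pooled, the ratio of L6CT to reference was 11.8 for FOXP2 (interval 9.73 to 14.5), 19.1 for SYT6 (13.6 to 27.4) and 3.01 for TLE4 (2.55 to 3.55). These ratios describe the label, because labels were given from expression.

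The 3 markers did not separate L6CT equally well from each other subclass. FOXP2 was at 0.27 to 0.68 and SYT6 at 0.09 to 0.29 in the other 5 subclasses, far below L6CT. TLE4 was at 2.78 in L5NP (interval 1.67 to 4.34, 39 cells), next to 2.82 in L6CT (2.50 to 3.17), while IT_A had 0.89 and L5PT 0.42. TLE4 therefore told L6CT from IT and L5PT cells but not from L5NP cells in these data. Among the other layer 6 genes, SOX5 was at 3.73 in L6CT and 4.33 in L5PT (3.53 to 5.25), and BCL11B, a transcription factor best known from L5PT cells, was at 1.92 in L6CT and 3.18 in L5PT.

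**Figure D1:**
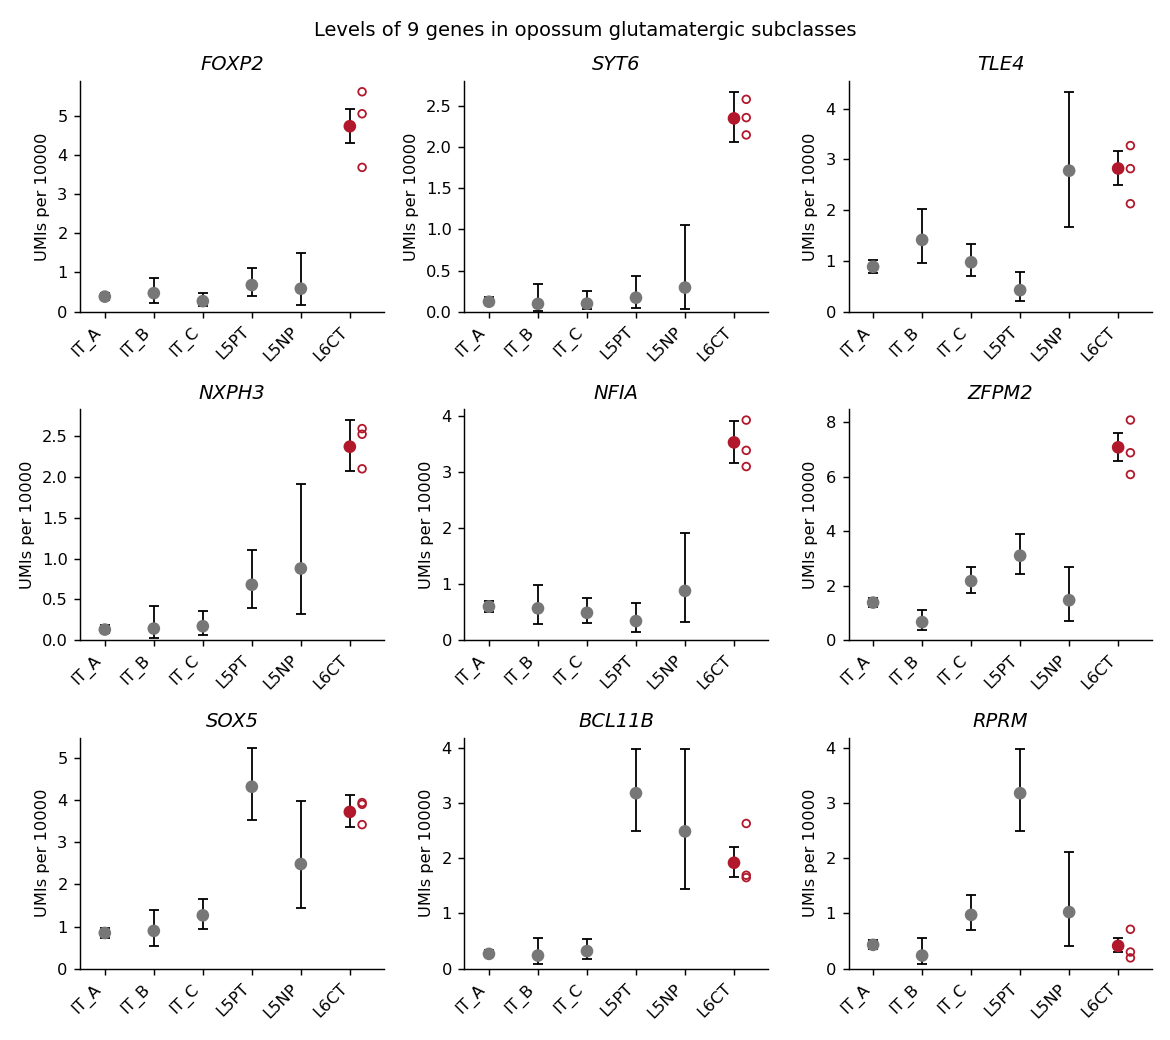
Levels of 9 genes in UMIs per 10000 in the opossum glutamatergic subclasses. Filled points are sums over all regions with exact Poisson intervals at 95%, L6CT is red, and open circles are L6CT in each of the 3 regions. FOXP2, SYT6 and NFIA stand out in L6CT, TLE4 is shared with L5NP, SOX5 and BCL11B are shared with L5PT and L5NP, and RPRM is highest in L5PT at 3.18.

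Across the transcriptome, a gene was counted where L6CT differed from the reference by at least 1.5-fold with the same direction in each of the 3 regions. Of 4794 genes with at least 200 UMIs, 234 were higher in L6CT (4.88%) and 405 were lower (8.45%). With each subclass of the reference weighted equally, 277 were higher and 355 lower, of which 175 and 275 were among these genes. Without IT_A in the reference, 278 were higher and 380 lower, of which 159 and 270 were among them. Of the 234, 173 were also above each other subclass taken alone, and the next highest subclass was most often L5NP (77 genes), followed by L5PT (54 genes), IT_C (45), IT_B (41) and IT_A (17). Against the 1 other subclass with the highest level of each gene, 43 genes were higher by 1.5-fold in the same direction in each region. Without the L6CT cells that lay far above the others, 255 genes were higher and 420 lower. Summed over the 234 genes, the level was 605 UMIs per 10000 in L6CT, 376 in L5NP, 366 in L5PT, 345 in IT_C, 285 in IT_A and 275 in IT_B. These genes were chosen for being higher in L6CT than in a reference mostly of IT_A, so the sums are not an independent ranking of subclasses. L5NP is the smallest subclass compared, with 68358 UMIs, so its levels are the least precise.

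Among genes with a symbol, the 15 with the highest ratio spanned 3.75 to 19.1-fold and covered several molecular roles. Transcriptional regulators were FOXP2, the LIM-only cofactor LMO3 (9.43-fold), NFIA (6.20-fold), the GATA cofactor ZFPM2 (4.55-fold) and FEZF2 (4.26-fold), which directs subcortical projection identity. LMO3 had 2.22, 2.46 and 2.05 UMIs per 10000 in L6CT of the 3 regions and 0.22, 0.26 and 0.24 in the reference. NFIA had 3.92, 3.38 and 3.10 against 0.52, 0.57 and 0.67. Both were evenly high across regions. ZFPM2 was the most abundant of the 5, at 6.87, 8.07 and 6.07 against 1.90, 1.57 and 0.73.

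Secreted and surface molecules formed another group among these 15. NXPH3, a neurexophilin that binds neurexins, had 2.10, 2.52 and 2.59 UMIs per 10000 against 0.12, 0.23 and 0.27, a 12.4-fold difference (9.37 to 16.7), although its ratio to oligodendrocytes at L6CT depth was far smaller. NPNT, the matrix protein nephronectin, was 6.22-fold higher and ISLR2, a leucine-rich repeat protein of growing axons, 4.39-fold higher. For NXPH3 and NPNT the next subclass was L5NP, with 0.88 and 1.61. ANO4, of the anoctamin family, was 7.10-fold higher, again with L5NP next at 1.76.

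Receptors and channels completed the list. GRIK3, a kainate receptor subunit, had 6.57, 7.72 and 4.99 UMIs per 10000 against 1.03, 0.92 and 1.04 and was 6.64-fold higher (5.80 to 7.61), but L5NP also reached 4.39. GRM8, a presynaptic metabotropic glutamate receptor, had 1.72, 1.42 and 0.62 against 0.23, 0.23 and 0.29, so its ratio in region 3 was 2.13 beside 7.45 and 6.10. GABRA5, a GABA-A receptor subunit, was 4.37-fold higher, with IT_C next at 1.51 beside 1.79 in L6CT. The leak potassium channels KCNK2 and KCNK9 were 4.24 and 3.75-fold higher. The 2 features without a symbol and with the highest ratio were ENSMODG00000049993 (7.0-fold) and ENSMODG00000031561 (6.47-fold).

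**Figure D2:**
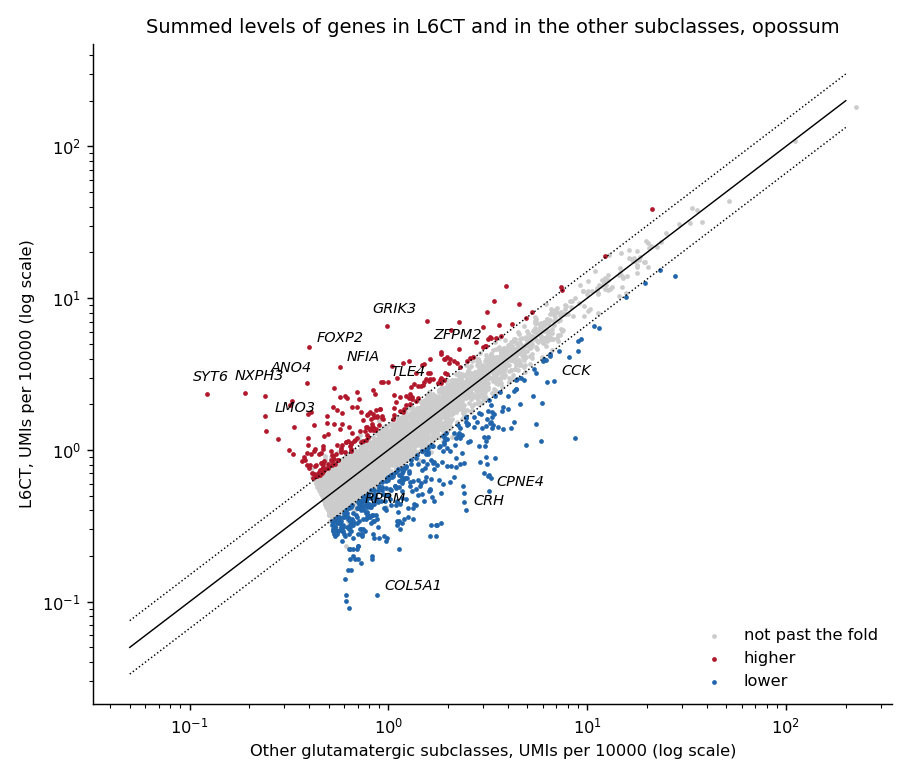
Summed level of each gene in L6CT against the other glutamatergic subclasses, in UMIs per 10000 on log axes, for the 4794 opossum genes compared. The solid line marks equal levels and the dotted lines a 1.5-fold difference. Red marks the 234 genes counted as higher and blue the 405 counted as lower.

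Among genes with a symbol, the 10 with the lowest ratio lay 5.37 to 7.93-fold below the reference. The identifiers ENSMODG00000042178 and ENSMODG00000005029, which have no symbol, were 6.44 and 5.56-fold lower. KCTD16, an auxiliary subunit of GABA-B receptors, had 1.22, 1.13 and 1.28 UMIs per 10000 in L6CT and 8.07, 9.09 and 9.22 in the reference, a 7.21-fold difference. It was highest in IT_B (12.3) and IT_A (10.1). CRH, the stress peptide corticotropin-releasing hormone, had 0.20, 0.36 and 0.77 against 2.49, 2.28 and 2.87. CPNE4, a copine, was 6.03-fold lower, the ephrin receptor EPHA3 5.96-fold lower and COL5A1, a fibrillar collagen chain, 7.93-fold lower. The others were CHST9, GUCY1A1, AJAP1, ENTREP2 and NWD2. For each of the 10, the highest other subclass was IT_A or IT_B.

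Lists of genes by role were then read against these shares. Of the IT markers, 6 of 6 compared were lower in L6CT, among them CUX2 (0.80 against 3.12), RASGRF2 (0.70 against 3.04) and RORB (0.33 against 1.12). Among cells of the lowest 30% of each region alone, RASGRF2 had a ratio of 0.77 (0.46 to 1.28) and CUX1 of 1.08, while CUX2 and RORB had 0.64 and 0.44. Of the layer 6 list, 6 of 8 were higher (NXPH3, NFIA, ZFPM2, FEZF2, SOX5, TBR1) and 1 was lower (RPRM). Of the L5PT markers, BCL11B was higher and the other 2 compared, NEFH and ETV1, did not pass. No gene of the L6b and subplate list or the L5NP list had enough UMIs to compare. The summed L6b and subplate level was 0.48 in L6CT and 0.64 in the reference.

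Glutamate receptors went both ways. Of 12 ionotropic subunits, 2 were higher (GRIK3 and GRIA1) and 3 lower, GRIA4 and GRIK4 among them, with a list median of -0.23 on the log2 scale beside 0.02 over all genes compared. GRIA4, an AMPA receptor subunit, had 2.40, 2.17 and 1.32 UMIs per 10000 in L6CT against 6.21, 6.12 and 5.02, which set it apart in each region. Among cells of the lowest 30% of each region alone, however, its ratio was 0.76 (0.61 to 0.95). Of 5 metabotropic receptors, GRM8 was higher while GRM5, GRM4 and GRM7 were lower. Of 7 GABA-A subunits, GABRA5 was higher and GABRA2 lower (0.98 against 2.03, with a ratio of 0.84 in the lowest 30%), the other 5 passing in neither direction.

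Of 30 potassium channel genes, 5 were higher, including KCNIP1 (3.04-fold), a subunit that modulates A-type channels, 10 were lower and the other 15 passed in neither direction. The ether-a-go-go channel genes KCNH7 and KCNH1 were among the lowest, at 1.15 against 5.83 and 1.39 against 4.15. Of 17 sodium, calcium and HCN channel genes, SCN3B (3.17-fold) and CACNA1E (2.17-fold), the R-type calcium channel, were higher and 3 were lower, CACNA1B and CACNB4 among them. Neither of these 2 passed the fold among cells of the lowest 30% of each region alone, with ratios of 0.89 (0.64 to 1.26) and 0.73 (0.62 to 0.85). CACNA1E had 7.57, 7.81 and 3.06 against 3.25, 2.91 and 2.51, so region 3 showed a ratio of only 1.22.

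Neuropeptide genes were mostly lower, with 4 of 5 compared (CRH, PENK, CCK and ADCYAP1) and a list median of -1.26. CCK, cholecystokinin, had 2.72, 3.35 and 2.40 UMIs per 10000 in L6CT and 7.16, 6.34 and 7.24 in the reference, with no overlap. Of 11 receptors for modulators and peptides, the muscarinic CHRM3 and the orexin receptor HCRTR2 were higher. Among cells of the lowest 30% of each region alone, however, CHRM3 had a ratio of 1.18 (0.88 to 1.59). HCRTR2 had 2.00 there, with 22.9, 2.44 and 0.30 in regions 1, 2 and 3. The serotonin receptor HTR2A, the adrenergic ADRA1B and the histamine receptors HRH2 and HRH3 were lower, but HTR2A and ADRA1B did not pass as lower among cells of the lowest 30% alone.

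Of 45 guidance and adhesion genes, 4 were higher and 17 lower. The netrin receptor DCC was 2.99-fold higher, yet L5NP held more of it (6.00 beside 2.50). EPHA5 was 2.98-fold higher, at 7.17, 5.85 and 4.87 against 2.02, 2.10 and 2.03, and L5NP was next at 2.78. The repellent SLIT2 and the netrin receptor UNC5D were 5.33 and 4.55-fold lower. Among calcium-binding genes PCP4L1 was 3.08-fold higher, with 12.0 in L6CT and 12.3 in L5NP. CALB1, calbindin, was 3.46-fold lower, but had a ratio of 0.99 (0.56 to 1.78) among cells of the lowest 30% of each region alone.

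Housekeeping and activity genes did not stand apart. None of 42 oxidative phosphorylation genes, 50 ribosomal protein genes and 5 immediate early genes passed in either direction. Their medians on the log2 scale were 0.13, 0.14 and -0.14.

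Markers of other cell types were read in the same cells. Of 4 oligodendrocyte genes compared, 2 were higher in L6CT, MBP of the myelin sheath among them, and the 7 genes listed summed to 45.4, 53.0 and 44.9 UMIs per 10000 in regions 1, 2 and 3 against 28.8, 27.8 and 23.4 in the reference. Cells with the oligodendrocyte label held 103, L5NP cells 45.6 and IT_A cells 24.9, so the reference level itself differed with subclass. The defining genes MOG and CLDN11 were at 0.68 and 0.67 in L6CT against 0.50 and 0.48. Of 5 astrocyte genes, SLC1A2 was higher (5.43 against 3.48) and the 6 listed summed to 11 against 8.23. The 7 GABAergic genes summed to 7.46 against 8.08, with GAD2 lower, and the 5 microglial genes to 0.24 against 0.25, P2RY12 being at 0. No precursor gene had enough UMIs to compare, and the 1 endothelial gene compared did not pass. The part of glial RNA in the higher genes was not tested.

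Position was not used to give the labels, so depth was not set by them directly. The labels came from expression, in which RNA of nearby cells cannot be told apart from a cell's own. In all cells without the L6CT label, FOXP2 was at 0.32 in the uppermost and 1.67 in the deepest of 10 depth bins. The part of nearby RNA in the labels was not tested. Depth was measured from the edge of the smallest rectangle around each region, and IT_A alone decided which end was the top. L6CT was the deepest of the glutamatergic subclasses compared, which leave out IT_D and L6b. Its median depth was 691 µm (interquartile range 606 to 729) on a scale set to the tallest region of 773 µm. The regional medians were 702, 694 and 670 µm. The order above it was L5NP at 630 µm, L5PT at 552, IT_C at 508, IT_B at 375 and IT_A at 189 µm. L6CT lay below L5NP in each of the 3 regions, where L5NP medians were 647, 630 and 600 µm, although the interquartile ranges overlapped in each.

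When each region was cut into 10 equal bins from top to bottom, 74.3% of L6CT cells fell in the deepest 2. They made up 94.2% of the glutamatergic cells compared in bin 10 and 61.5% in bin 9, but 16.2% in bin 8. In bin 9 the share was 53.2%, 57.0% and 78.6% by region. The bottom of each region was set by the authors' outline, so the place of L6CT relative to white matter was not measured. Of the 10 nearest cells around an L6CT cell, 41.8% were L6CT, with 45.1%, 36% and 44.0% in the 3 regions, beside 17.3% of all cells between the 10th and 90th percentile of L6CT depth. That band is wider than the bins that hold most L6CT cells. Bin 9 held 158 L6CT cells beside 287 of all other labels, and bin 10 held 262 beside 229. Clustering beyond this layering was not tested. Oligodendrocyte-labelled cells were 17.4% of the neighbours and IT_A cells 10.8%.

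**Figure D3:**
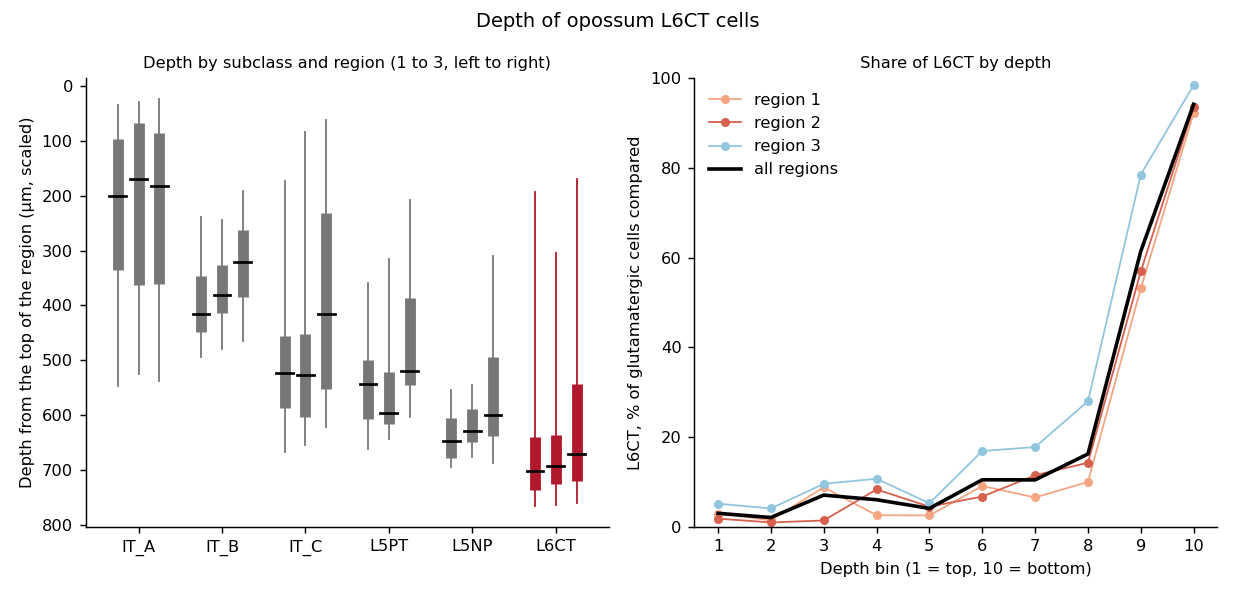
Left, depth in µm from the top of the region, scaled to the tallest region, for each glutamatergic subclass in regions 1 to 3, with the median (black), interquartile range (thick) and the span from the 5th to the 95th percentile (thin). Right, L6CT as a percentage of the glutamatergic cells compared in each of 10 depth bins. L6CT lies deepest of the subclasses compared, at a median of 691 µm, and reaches 94.2% in the deepest bin, with a thin tail of cells far above.

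The thin tail was examined next. In all, 62 L6CT cells (11%) lay above the median depth of IT_B, 22, 14 and 26 of them in the 3 regions, at a median of 203 µm. They had a median of 848 UMIs, beside 1862 in the 503 cells below, and 31 came from round 2 and 31 from round 3 of the labelling, with none from round 1. They differed in which L6CT genes they held. FOXP2 was at 5.35 UMIs per 10000 (3.61 to 7.63) in the shallow cells and 4.69 (4.27 to 5.15) in the deep ones. TLE4 was at 2.67 (1.5 to 4.41) and 2.83, and NFIA at 2.85 (1.63 to 4.63) and 3.57. In cells labelled as astrocytes or oligodendrocytes above the same depth, FOXP2 was at 0.46 (0.24 to 0.80) and 0.74 (0.34 to 1.41), and TLE4 at 1.71 (1.25 to 2.29) and 1.32 (0.76 to 2.15), so the intervals of FOXP2 lay apart and those of TLE4 overlapped. NFIA was at 1.68 (1.22 to 2.25) in the astrocytes and 1.73 (1.07 to 2.65) in the oligodendrocytes, which also overlapped the shallow L6CT cells, and its 16 UMIs there were 9, 0 and 7 by region.

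ZFPM2 was at 2.85 (1.63 to 4.63) in the shallow cells beside 7.32 in the deep ones and 1.40 in IT_A cells above the same depth, with 12 of its 16 UMIs in region 1. Several other leading genes had 1 or 0 UMIs in the shallow cells. SYT6 had 1 UMI there, a level of 0.18 (0.0045 to 0.99) beside 2.48 in the deep cells, a ratio of 0.072 (0.0018 to 0.40). NXPH3, LMO3, ANO4 and GRM8 had 0 UMIs of 56109, for which a floor of 3 counts over the group, a level of 0.53, was taken. Against that floor, the deep cells were 4.70-fold higher for NXPH3, 4.48-fold for LMO3, 5.49-fold for ANO4 and 2.65-fold for GRM8. The exact upper limits of the shallow to deep ratio were 0.26, 0.28, 0.23 and 0.47 in the same order. GRIK3 was at 1.07 (0.39 to 2.33) beside 6.88 and SOX5 at 0.71 (0.19 to 1.83) beside 3.91. Of the 15 leading genes, 13 had an interval of the shallow to deep ratio wholly below 1, the exceptions being FOXP2 and NFIA. These genes were chosen by their ratio in all L6CT cells, where the deep cells held 939369 of 995478 UMIs. A lower level in the shallow cells is thus partly built into the choice. The share of all genes with such an interval is not given here.

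IT genes were also read in the shallow cells. CUX2 was at 2.32 (1.23 to 3.96) and RASGRF2 at 2.32, beside 0.71 and 0.61 in the deep cells and 3.55 and 3.12 in IT_A cells of the same depths. CUX2 was at 2.32 (1.78 to 2.98) in the astrocytes and 2.72 (1.88 to 3.83) in the oligodendrocytes above that depth as well, so its level did not set the shallow L6CT cells apart from glia. The 7 IT genes summed to 8.55 in the shallow cells, 3.47 in the deep cells and 12.2 in those IT_A cells. The FOXP2 level in those IT_A cells was 0.33. The label came from expression, so the FOXP2 level is not independent of it, and whether the shallow cells are corticothalamic was not tested. Of FOXP2, TLE4 and NFIA, only FOXP2 lay above the glial level of the same depth with intervals apart.

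**Figure D4:**
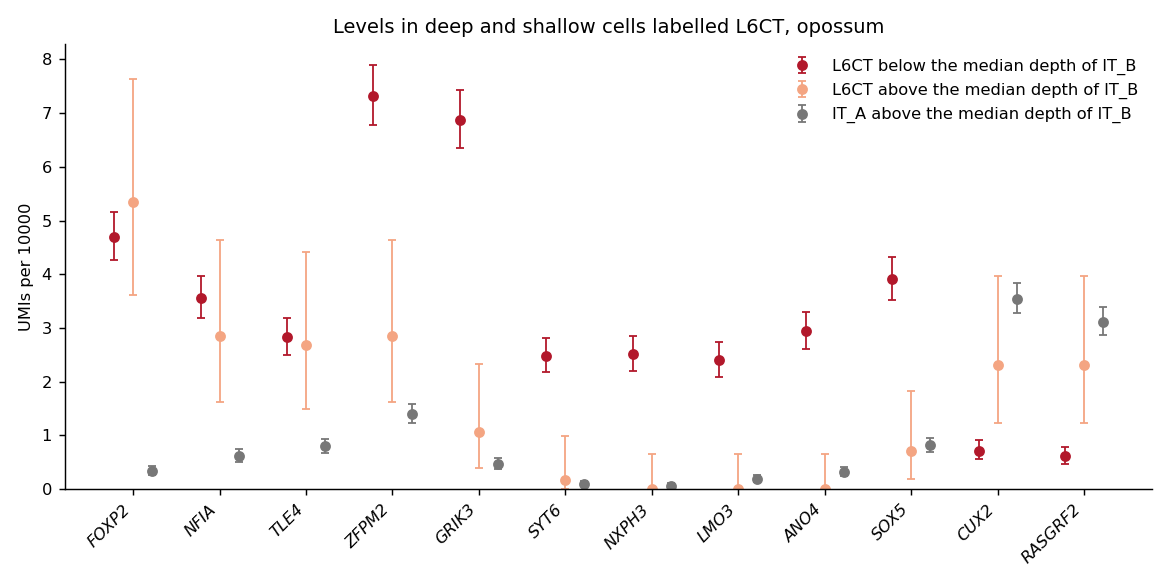
Levels in UMIs per 10000 of 12 genes in the 503 L6CT cells below the median depth of IT_B (red), the 62 L6CT cells above it (orange) and IT_A cells above it (gray), with exact Poisson intervals at 95%. FOXP2, NFIA and TLE4 are at similar levels in deep and shallow L6CT cells, while SYT6, NXPH3, LMO3 and ANO4 have 1 or 0 UMIs in the shallow cells and CUX2 and RASGRF2 are higher there.

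Levels also differed by the round of the label. FOXP2 was at 5.82 (5.18 to 6.50), 4.35 (3.67 to 5.11) and 1.31 (0.76 to 2.09) in cells of rounds 1, 2 and 3, and SYT6 at 3.06, 1.70 and 1.15. TLE4 was at 3.42, 2.11 and 2.23. The summed IT genes went the other way, at 2.28, 4.59 and 7.61. Median depth was 715, 669 and 528 µm, and 0%, 14.1% and 32.6% of the cells lay above the median depth of IT_B.

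Levels of the leading genes were also read in other classes at the same depth, where free RNA and a cell's own expression cannot be told apart. Between the 10th and 90th percentile of L6CT depth, FOXP2 was at 4.36 in L6CT (median 1843 UMIs per cell), 0.59 in non-neuronal oligodendrocytes (median 1230 UMIs), 0.82 in non-neuronal astrocytes (1242 UMIs) and 0.25 in GABAergic cells (1706 UMIs). SYT6 was at 2.50, 0.67, 0.37 and 0.31 in the same groups. Both lay above the glial level with intervals that did not overlap. TLE4 was at 2.78 in L6CT, 1.35 in oligodendrocytes, 2.02 in astrocytes (1.52 to 2.63) and 0.59 in GABAergic cells, so its ratio to astrocytes was only 1.38 (1.02 to 1.89). Within the 25th to 75th percentile of depth, TLE4 was at 3.17 in L6CT and 2.66 (1.66 to 4.02) in 55 oligodendrocytes, a ratio of 1.19, and at 1.83 (0.95 to 3.20) in 42 astrocytes, which overlapped L6CT. FOXP2 was at 4.37 in L6CT and 1.45 in those oligodendrocytes, a ratio of 3.01. In the astrocytes of that band FOXP2 was at 2.29 (1.28 to 3.78), so L6CT exceeded it by 1.91-fold only. For SYT6 the ratio in that band was 2.25 over oligodendrocytes and 2.97 over astrocytes. In the deepest of 10 depth bins SYT6 was at 2.54 (2.12 to 3.01) in L6CT. All cells without that label had 1.60 (1.17 to 2.13) there, so the intervals overlapped. FOXP2 was at 5.86 (5.21 to 6.56) and 1.67 (1.23 to 2.21) in the same 2 groups.

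Other leading genes differed in the same comparison. NXPH3 was at 2.53 in L6CT and 1.56 (1.10 to 2.15) in non-neuronal oligodendrocytes between the 10th and 90th percentile, a ratio of 1.62 (1.14 to 2.37), and at 2.95 and 3.02 (1.95 to 4.46) between the 25th and 75th. In the deepest bin NXPH3 was at 2.56 in L6CT and 2.50 (1.96 to 3.15) in all cells without that label, so it did not separate L6CT from those cells. GRIK3 was at 7.07 in L6CT of the wider band, 1.94 in oligodendrocytes, 0.93 in astrocytes and 2.71 in GABAergic cells. ZFPM2 was at 7.25, 1.22, 1.42 and 1.99 in the same groups, and NFIA at 3.76, 2.02, 2.02 and 0.70, so all 3 were highest in L6CT.

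Depth itself varies with subclass, so the ratios were also taken between cells of the lowest 30% of each region alone, a comparison chosen after the data had been seen. It held 452 L6CT cells and 280 others (105 IT_C, 77 IT_A, 65 L5PT, 33 L5NP). Depth was narrowed by this but not matched. Bins 8, 9 and 10 held 32, 158 and 262 of these L6CT cells and 165, 99 and 16 of the others, and the mix of subclasses changed too. Of the 234 higher genes, 229 remained above the reference by the ratio over the 3 regions together, and 159 did so by 1.5-fold. With the same direction in each region also required, 140 were counted again. Of the 405 lower genes, 376 remained below by the ratio over the regions together and 246 by 1.5-fold. With the same direction in each region, 180 were counted again. Over all 4794 genes, 346 (7.22%) were higher and 322 (6.72%) lower in this setting. The 452 L6CT cells are 80% of those in which the 234 and 405 genes were chosen, so this is not an independent check. SYT6 was 9.93-fold higher (5.89 to 18), LMO3 8.04-fold, FOXP2 7.70-fold (5.45 to 11.2) and NFIA 7.63-fold. Other ratios were smaller than with all depths, at 4.31 (3.01 to 6.34) for NXPH3, 2.70 (2.26 to 3.25) for GRIK3, 2.54 (1.85 to 3.55) for NPNT and 2.49 (2.11 to 2.96) for ZFPM2. FEZF2 was 1.34-fold higher (0.99 to 1.83), the only 1 of the 15 leading genes below 1.5-fold, and GABRA5 was 1.51-fold higher, with both below 1 in region 3 (0.87 and 0.85), as was GRM8 (0.82). RPRM was 0.22 of the reference (0.15 to 0.33). Of 80 named genes past the fold with all depths, 58 were past it here and 22 were not, by the ratio over the 3 regions together. Among the higher genes that were not, BCL11B had 1.42 (1.08 to 1.89), PCP4L1 1.43 (1.29 to 1.59), KCNMB4 1.34 (0.99 to 1.85), CDH13 1.23 (0.97 to 1.57) and SLC1A2 1.23 (1.06 to 1.44). NRXN3, lower with all depths, had 1.46 (1.31 to 1.62). Some lower genes no longer passed the fold, with ratios of 0.96 (0.31 to 3.29) for GUCY1A1, 0.80 (0.45 to 1.41) for ADRA1B and 1.08 (0.62 to 1.92) for CUX1, and HTR2A had 11 UMIs in L6CT and 0 of 560430 in the others. MBP was 1.35-fold higher (1.27 to 1.43), beside 1.82-fold with all depths.

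L6CT cells were then compared among themselves by splitting them at the median depth of each region into 283 deeper and 282 shallower cells, with median depths of 729 and 605 µm. Of 1040 genes compared, 32 were higher in the deeper cells (3.08%) and 30 lower (2.88%). TMEFF2, a transmembrane protein with follistatin-like domains, was 2.63-fold higher in the deeper cells (2.08 to 3.35), with 2.97, 2.40 and 2.48 in the regions. ANO4 was 2.60-fold, TMEM158 2.38-fold, STXBP5L 2.37-fold and GALNT18 2.23-fold higher. The kainate receptor GRIK2 and the ephrin EFNA5 were each 2.08-fold higher, the adhesion molecule LSAMP 1.98-fold, NFIB 1.88-fold and LMO3 1.81-fold. Each of these was higher in the deeper cells of all 3 regions.

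CCK had the lowest ratio among genes with a symbol in the deeper cells, at 1.33 against 4.72, a 3.54-fold difference, and its ratio was 0.26, 0.21 and 0.47 in the regions. MARK1, LINGO1, SLC25A12 and KCNT2 followed, at 1.86 to 2.04-fold lower. NTRK2, the receptor for BDNF, was 1.71-fold lower (0.51 to 0.68 as a ratio) and CPLX1, complexin, 1.67-fold lower. Of the markers, FOXP2 had a ratio of 1.56, but 0.96 in region 1 beside 2.09 and 2.55, so it did not count as higher. SYT6 had 1.26 (0.96 to 1.66), and TLE4 and ZFPM2 had 1.03 and 1.09.

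The shallower cells include the tail described above, and as a whole their summed IT level was 5.48 against 2.35 in the deeper cells. The summed oligodendrocyte level moved the other way, at 54.1 in the deeper and 40.2 in the shallower L6CT cells, and at 107 and 42.3 in all cells of other labels, glia included, on either side of the same depth. Its part in the genes higher in the deeper cells was not tested. The split was therefore repeated in L6CT cells of the lowest 30%, again after the data had been seen, with 227 deeper and 225 shallower cells at medians of 737 and 670 µm. All 53 genes with a symbol kept their direction there by the ratio over the 3 regions together. These cells are 80% of those in which the genes were chosen, so this is not an independent check. Only 11 of the 32 higher and 11 of the 30 lower genes were counted again with the same direction in each region. FOXP2 was 1.69-fold higher in the deeper cells (1.38 to 2.07), with 1.04, 1.94 and 3.25 in the regions. CCK was 2.54-fold lower (0.28 to 0.54 as a ratio), STXBP5L 2.10-fold higher, TMEFF2 1.73-fold higher and NRXN3 1.53-fold higher, while TMEM158 had a ratio of 1.20 (0.90 to 1.59) and LINGO1 0.93 (0.67 to 1.29). In the cells of all other subclasses at these depths, 195 and 703 on either side of the same depth, 42 of the 53 went the same way. The share over all genes compared is not given here. TMEM158 and LMO3 had ratios of 2.67 (1.95 to 3.63) and 2.86 (1.78 to 4.51) in those cells, beside 1.20 and 1.53 in L6CT. CCK had a ratio of 0.40 (0.30 to 0.51) there as well and KCNT2 0.47, whereas TMEFF2 had 0.95 (0.69 to 1.29) and NRXN3 0.69 (0.57 to 0.82). The ratio of TMEFF2 was thus near 1 and that of NRXN3 below 1 outside L6CT, and the difference between L6CT and other cells was not tested.

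The mouse data were used to place the opossum values, with genes matched by symbol and no test between animals. There, 1156 L6CT cells were set against 4166 other glutamatergic cells, and 167 of 7079 genes were higher (2.36%) and 282 lower (3.98%). The mouse reference held layer 6 IT (L6IT) and L6b cells, which have no counterpart in the opossum reference, so the ratios are not like for like. Of the 15 leading opossum genes, 14 could be compared in the mouse, and 10 were higher and 1 lower. FOXP2 was 14.1-fold higher in the mouse (11 to 18.3), with 11.9, 24.3, 21.7 and 10.3 in its 4 regions, and ZFPM2 5.79-fold, TLE4 3.65-fold and GRIK3 3.55-fold. Of these the ratios of FOXP2, ZFPM2 and TLE4 were close in size to those of the opossum. NXPH3 was 2.86-fold higher in the mouse beside 12.4-fold in the opossum, LMO3 1.68 beside 9.43, and KCNK9 1.14 beside 3.75, but NXPH3 and LMO3 were highest in the mouse in L6b cells, at 1.64 and 2.18 UMIs per 10000. SYT6 had too few mouse UMIs to be counted (58 in L6CT), with a ratio of 8.75 (5.18 to 15.4).

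Over all genes the likeness was looser. Of 182 higher opossum genes with a symbol, 150 could be compared. Of these, 28 (18.7%) were higher and 6 (4.00%) lower in the mouse, against 2.36% and 3.98% of the 7079 mouse genes compared. The shares among the 3094 genes compared in both species are not given here. Of 330 lower genes, 255 could be compared and 72 (28.2%) were lower and 11 (4.31%) higher. Across 3094 genes compared in both, Pearson's r of the log2 ratios was 0.40 and Spearman's rho 0.22. Genes are not independent replicates, and the points share 2 libraries of different depth.

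Some layer 6 genes of the mouse did not mark L6CT in the opossum. RPRM, reprimo, had 0.30, 0.71 and 0.19 UMIs per 10000 in opossum L6CT cells against 0.65, 0.82 and 0.53 in the reference, a ratio of 0.59 (0.41 to 0.83), and its highest level was in L5PT (3.18). In the mouse its ratio was 4.91 (4.40 to 5.47), with 4.06, 6.91, 5.39 and 5.24 in the regions. CRYM, a thyroid hormone-binding crystallin, had a ratio of 1.00 (0.77 to 1.30) in the opossum and 2.15 (1.91 to 2.43) in the mouse. NTSR1, the neurotensin receptor used to label these cells in mice, was below the UMI minimum in both, with ratios of 1.25 (0.86 to 1.77) and 4.53 (2.31 to 9.12). NPNT went the other way, at 6.22 in the opossum and 0.54 (0.37 to 0.78) in the mouse. An opossum feature and a mouse gene of the same symbol may differ in how much of the transcript was annotated, and this was not tested.

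**Figure D5:**
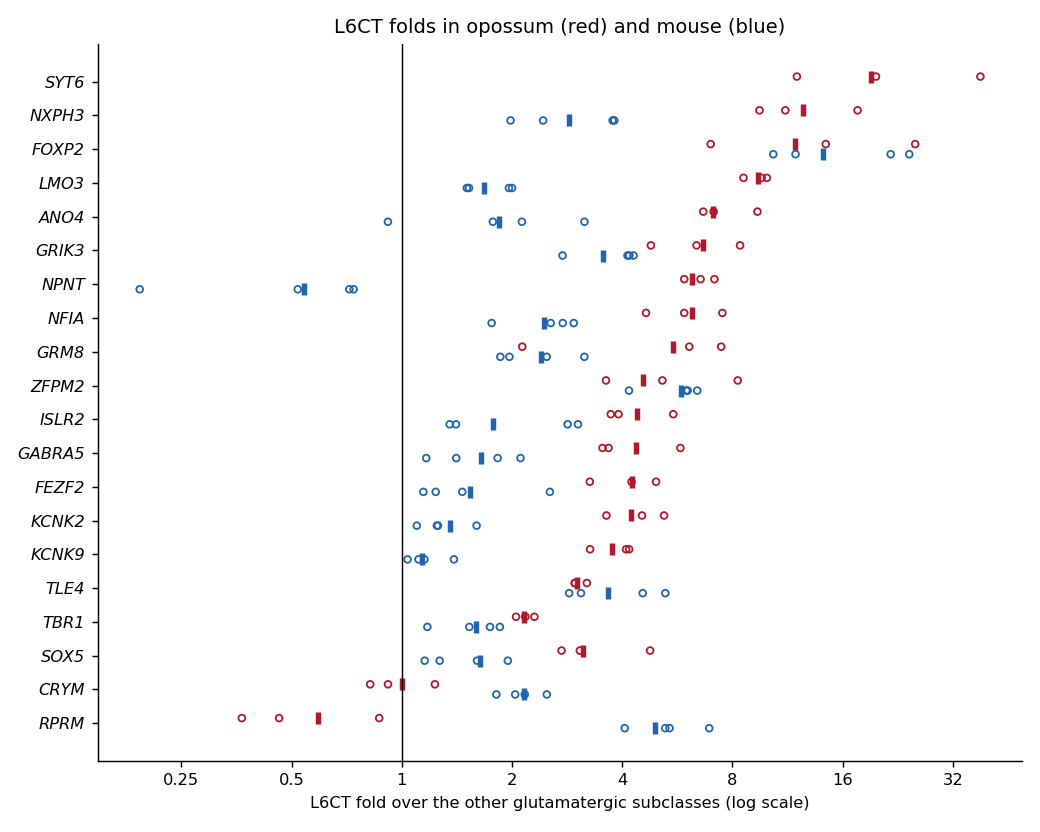
Ratio of the L6CT level to that of the other glutamatergic subclasses on a log axis for the 15 leading opossum genes and 5 further layer 6 genes, in the opossum (red) and the mouse (blue). Ticks are sums over all regions and open circles single regions, and SYT6 is shown only for the opossum because it had too few mouse UMIs. FOXP2, ZFPM2 and TLE4 lie close in both, and NPNT, CRYM and RPRM part.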

How the data were processed

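The authors processed Stereo-seq reads with the Stereo-seq Analysis Workflow, using for the opossum an assembly whose gene models had been lengthened at the 3′ side, and deposited unnormalized UMI counts per gene and segmented cell with position, V1 region, class and subclass. Labels had been transferred from snRNA-seq by nearest neighbours. Cells in V1 regions needed 50 genes and 100 UMIs or more. Subclasses with under 25 cells (IT_D, with 10 cells, and L6b) were left out of the reference. Counts were summed per subclass and region. Levels are UMIs per 10000, with exact Poisson, conditional and Clopper-Pearson intervals at 95% in scipy 1.17.1. Depth came from the smallest rectangle around a region, and 2 spatial units make 1 µm. Doublets were not called, and the libraries share 0 barcodes. No p-value was computed, since each species has 1 animal. The comparison was also run on simulated data, and the outcome is not reported here.

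The members and lists were chosen with earlier results of these data known. Named genes were the markers, the 15 highest and 10 lowest genes past the fold, 2 identifiers without a symbol each way, up to 4 genes each way from each list, and the 5 highest and 5 lowest genes by depth. GRIK2, EFNA5, LSAMP, NFIB, LMO3, NTRK2, CPLX1 and NRXN3 in the depth comparison were chosen after their values were seen. Of 30613 opossum features, 11598 carry a symbol. No sequence is shown because a table of the opossum build was not used here. Values of some named genes are not reported here.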

Additional observations from a re-analysis of the deposited data

Results flagged for a closer look

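In 7 named genes past the fold in the opossum, the ratio of L6CT to the other glutamatergic subclasses lay on opposite sides of 1 in every region of the opossum and every region of the mouse. NPNT had 6.22 in the opossum and 0.54 in the mouse. RPRM had 0.59 and 4.91. COL5A1 had 0.13 and 2.81 (2.09 to 3.76), with fewer UMIs in the mouse than the minimum for a comparison. KCNIP1 had 3.04 and 0.86, and SYT16 had 0.28 and 1.36, neither of which passed the fold in the mouse. GRIK4, a kainate receptor subunit, had 0.45 and 1.57, with opossum regions at 0.30, 0.63 and 0.58 and mouse regions at 1.63, 1.02, 2.66 and 1.15. ADRA1B, an adrenergic receptor, had 0.31 and 1.55. Against cells of the lowest 30% of the height its opossum ratio was 0.80 (0.45 to 1.41). The mouse reference held layer 6 subclasses that the opossum reference did not. The differences between the animals were not tested.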

How the results depend on the processing

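Every one of the 234 higher and 405 lower genes kept its direction in cells with at least 200 genes and 300 UMIs and with each cell weighted equally. Direction was kept by 231 and 396 without IT_A and by 233 and 403 with each reference subclass weighted equally. It was kept by 226 and 397 after thinning and by 229 and 376 in the lowest 30%. After thinning, 147 and 263 were counted again. Of the named ratios, 52 moved without IT_A and 47 with equal subclass weights. Without each region in turn, counts ran from 290 to 319 higher and 464 to 518 lower. The count of higher genes was 43 against the 1 other subclass with the highest level, 382 in cells of the first label round, 366 after thinning to 300 UMIs, 598 and 39 with gene minima of 50 and 1000 UMIs, and 90 at 2-fold. The lower count was 993 and 76 with those minima and 180 at 2-fold. Against the highest other subclass the ratio fell below 1 for SOX5 (0.86), BCL11B (0.60), SLC1A2 (0.91), KCNMB4 (0.85), HCRTR2 (0.76), DCC (0.42), CDH13 (0.44) and PCP4L1 (0.98). NRXN3 reached 1.04 without IT_A and 1.46 in the lowest 30% of the height, CUX1 1.08 there, and HTR2A, 4.06-fold lower with all depths, had 11 UMIs in L6CT and 0 in the others there. In that setting 59 of the ratios of named genes moved by more than the spread between regions, 22 did not, and 2 turned. HTR2A, without a finite ratio there, turned as well and is not among these. SLC17A6 had 1.15 after thinning. The L6CT share was 29.4% in the first label round and 19.2 to 22.3% without each region. Median depth was 650 µm unscaled, 715 µm in the first label round, where the interquartile range was 57.6 µm in place of 123 µm, and 684 to 698 µm without each region. In the depth comparison, counts were 119 and 52 for the lowest against the highest of 3 equal groups, 71 and 74 after thinning, 18 higher in the lowest 30%, and 55 to 76 higher and 38 to 47 lower without each region (76 and 47 without region 1, 55 and 41 without region 2, 59 and 38 without region 3). Of the 32 and 30 genes, each kept its direction by the ratio over the regions together, except 1 higher gene after thinning and 1 lower gene in the 3 equal groups. The ratio of L6CT to non-neuronal glia in the narrower depth band was 3.01 and 1.91 for FOXP2 (7.39 and 5.30 in the wider band, oligodendrocytes and astrocytes). It was 1.19 for TLE4 over oligodendrocytes (2.06), and 2.25 and 2.97 for SYT6 over oligodendrocytes and astrocytes (3.71 and 6.70). The causes were not tested. Counts are few for L5NP, with 39 cells, and for genes near 200 UMIs. No paired analysis was possible because each species has 1 sample.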
